A study of Daphnia magna with 48 samples.

Results

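The 102 most highly expressed genes of the whole body of Daphnia magna are described here, out of 16066 gene rows in the count table, or 0.635% of them. They were chosen by their level alone: a gene was taken when its mean over all 48 libraries was at least 1000 counts per M counts of the library (M, mega; the unit is written CPM). Their high level is therefore a description and not a finding. How that level varied among libraries, days and exposures was not part of the choice.

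Daphnia magna, a water flea, is a planktonic crustacean and a standard animal of aquatic toxicology, and those studied came from a field population. They were kept in M4 medium, an artificial pond water, with a light and dark cycle and daily feeding, and these conditions were shared by every group. The 9 exposed groups had copper, arsenic or a mixture of both metals for 1, 2 or 4 days, and the 3 control groups had neither metal over the same days, with 4 whole-body libraries in each of the 12 groups. The sources used here do not give the metal doses, the clone, the age of the animals or how many were pooled for a library. Days of exposure, age and any handling that went with the sampling day cannot be told apart. The labels do not say whether replicate libraries stem from separate cultures, so all p-values rest on a library-to-library spread that may be technical.

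A whole-body library mixes gut, muscle, epidermis, fat body, ovary and brood. In arthropods the most abundant messages of such a mixture commonly come from digestive enzymes, ribosomal and muscle proteins, cuticle, yolk and, in Daphnia, haemoglobin, and several of these follow feeding, moulting and egg production. Copper is an enzyme cofactor that harms the animal in excess, and arsenic binds to protein thiols. The identifiers of the table matched 0 entries of the reference gene table, of assembly ASM2063170v1.1. No member could therefore be given a name, a role or a sequence, no marker of a tissue could be checked, and the genes are described by identifier. CPM counts reads without regard to gene length, so an order by CPM is one of reads and not of molecules. In a mixed body, a change in the number of cells of a type and a change in the RNA per cell cannot be told apart.

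Library totals ran from 7.93 M to 20.1 M counts with a median of 13.3 M, a 2.53-fold range. At 1000 CPM in the shallowest library, counting error alone gave a coefficient of variation (CV) of 1.12%. The smallest count of any member in any library was 3252, so counting error was small beside the differences reported here. All 102 members were among the 15813 genes tested.

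The members took 27.8% of all counts on average, between 24.3% and 31.0% in single libraries. The first gene alone took 2.33%, the first 3 together 5.86% and the first 10 together 12.3%. The highest was Dapma7bEVm012028t1 with a mean of 23287 CPM, and Dapma7bEVm014991t1 followed with 21066 CPM. Dapma7bEVm002960t1 had 14244, Dapma7bEVm015522t1 12388, Dapma7bEVm018415t1 11446 and Dapma7bEVm009632t1 10023 CPM on average. Dapma7bEVm020394t1 had 9955, Dapma7bEVm011496t1 7617, Dapma7bEVm009808t1 7613 and Dapma7bEVm015017t1 5857 CPM. Of the 102 members, 31 had 2000 CPM or more.

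**Figure D1:**
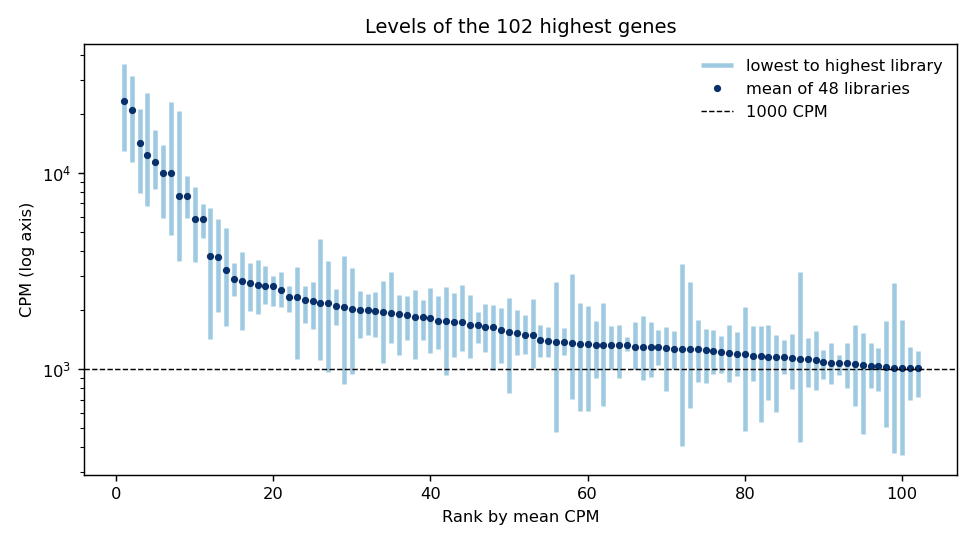
Level of each of the 102 members in CPM (log axis) against its rank by mean CPM. Points are means of 48 libraries and bars run from the lowest to the highest library. The first 10 members stand at 5857 CPM or more, and the bars of 48 members reach below the dashed line at 1000 CPM.

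The order at the top was not fixed. Dapma7bEVm012028t1 was between rank 1 and rank 4 in every library, Dapma7bEVm014991t1 between ranks 1 and 5, and Dapma7bEVm011496t1 between ranks 3 and 14. The ranges of neighbours in the order overlapped: Dapma7bEVm012028t1 ran from 12938 to 36175 CPM and Dapma7bEVm014991t1 from 11346 to 31146 CPM. In all 48 libraries 56 members were among the 102 highest genes of the library.

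The lower edge was a matter of small differences. Just inside it were Dapma7bEVm000066t1 with 1016, Dapma7bEVm004925t1 with 1013 and Dapma7bEVm004183t1 with 1009 CPM. Just outside were Dapma7bEVm002744t1 with 993.5, Dapma7bEVm018446t1 with 987 and Dapma7bEVm002707t1 with 958 CPM. Of the members, 54 had at least 1000 CPM in every library and 76 had it in every group mean, while 29 genes outside the set reached 1000 CPM in the mean of at least 1 group. A member that passed in some groups only was bound to differ between groups, so counts of changed members near this edge are partly fixed by the choice. The lowest value of any member in any library was 364 CPM, so every member was detected throughout, and 0 members had a count of 0 or fell under 100 CPM.

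Within groups the spread of most members was small. The median over members of the CV within groups was 12.4%, against 20.4% over all genes tested, and single members lay between 2.87% and 49.5%. A CV under 10% was found in 33 members and one over 25% in 8. The steadiest were Dapma7bEVm001979t1 at 2.87%, Dapma7bEVm000189t1 at 4.05% and Dapma7bEVm010382t1 at 4.49%. Dapma7bEVm001979t1 ran from 1236 to 1458 CPM over all 48 libraries, so its highest library was only 1.18 times its lowest. The most variable were Dapma7bEVm015635t1 at 49.5%, Dapma7bEVm020523t1 at 44.1% and Dapma7bEVm015890t1 at 40.4%. Dapma7bEVm020523t1 ran from 406 to 3439 CPM, an 8.47-fold range, and the arsenic libraries of day 1 alone spanned 982 to 3439 CPM. Over members the highest library was a median of 1.97 times the lowest, with 11 members under 1.5 times and 25 over 3 times.

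The summed share of the members was larger on later days. It was 26.5% ± 1.31 on day 1, 27.8% ± 1.28 on day 2 and 29.1% ± 1.41 on day 4 (SD, n = 16 libraries a day). On day 4 the lowest, median and highest library had 26.3%, 29.6% and 31.0%, against 24.3%, 26.4% and 28.7% on day 1. The ranges overlapped, though the median library of day 4 stood above every library of day 1. The difference was 2.60 percentage points (two-sided permutation test with 100000 resamples, p 4.00e-05, adjusted p 4.40e-04 over 11 comparisons of the share). Day 2 exceeded day 1 by 1.29 points (permutation p 0.00805, adjusted p 0.0443). That smaller difference was close to the threshold. With 1 library left out it lay between 1.15 and 1.44 points. It missed the threshold in 20 of 32 such runs, with permutation adjusted p from 0.0173 to 0.0927. Together the 3 highest genes averaged 4.59% on day 1, 5.83% on day 2 and 7.15% on day 4. The SDs were 0.891, 0.951 and 1.09 (n = 16 libraries a day). In percentage points their rise was about as large as that of the whole share. Other members both rose and fell, so the larger share does not stand for a rise across the set.

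**Figure D2:**
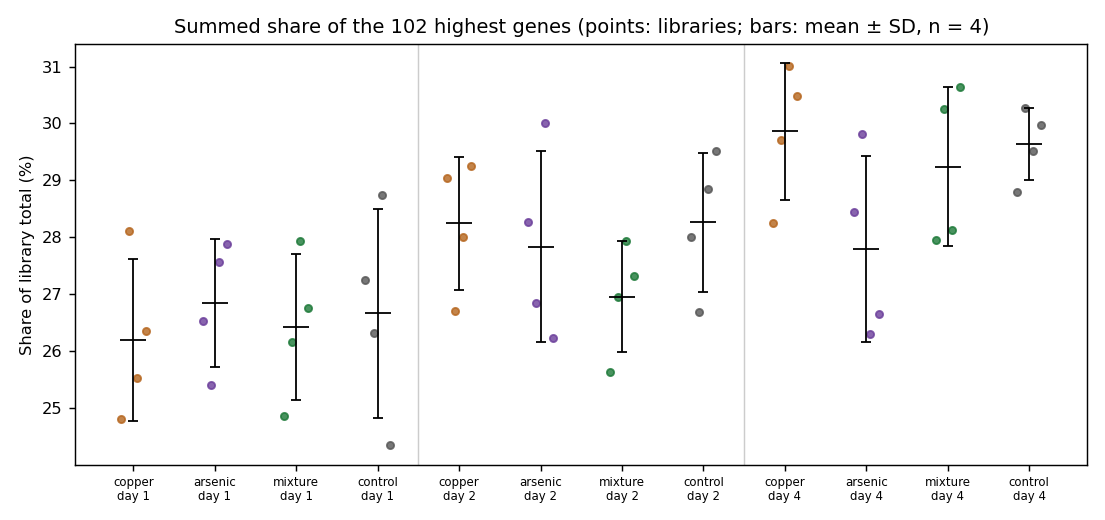
Summed share of the library total taken by the 102 members (percent; the axis does not start at 0) in the 12 groups. Points are single libraries, and bars show the mean ± SD of 4. Day 4 averages 29.1% and day 1 26.5%, and the arsenic libraries of day 4 average 27.8%.

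In single genes, called differences of the members lay between sampling days. Those comparisons had 16 libraries a side, against 4 for an exposure and its controls, so the numbers of calls are at unlike precision. Each day was compared with the others over 16 libraries, all treatments together, in a model of the 12 groups fitted to all genes. A member was called at an adjusted p under 0.05 by edgeR's quasi-likelihood test with Benjamini-Hochberg adjustment over the 15813 genes. Between days 4 and 1, 68 of 102 members were called, 44 higher and 24 lower on day 4, where 37% of all genes tested were called, 16.9% higher and 20.1% lower. Between days 2 and 1, 44 members were called, 35 higher and 9 lower on day 2, where 15.6% of all genes were called, 7.54% higher and 8.06% lower. Between days 4 and 2, 52 members were called, 26 in each direction, where 24.4% of all genes were called, 12.2% higher and 12.1% lower. The members are measured more precisely than most genes, with a median SE of the log2 fold change of 0.073 between days 4 and 1, against 0.116 over all genes. The median size of the log2 fold change was 0.23 in members and 0.21 over all genes in that comparison. The part of this precision in the number of calls was not tested.

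The split into higher and lower depended on the scaling. With libraries scaled to their totals alone, without the trimmed-mean (TMM) factors, 34 members were higher and 35 lower on day 4 than on day 1. Between days 2 and 1 that scaling gave 25 higher and 16 lower, and between days 4 and 2 it gave 25 higher and 32 lower. The scaling moved the median of all genes by −0.09, −0.06 and −0.03 on the log2 scale in these 3 comparisons. Of the members called above, 58 of 68 between days 4 and 1, 34 of 44 between days 2 and 1 and 51 of 52 between days 4 and 2 were still called under it, and 0 changed sign. TMM factors taken from genes outside the set gave 46 higher and 23 lower between days 4 and 1. The shares of all genes called higher and lower under these other scalings are not given. These splits therefore have no background beside them.

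Most changes between days were small. Between days 4 and 1, 20 of the called members changed over 1.5-fold, where 6.96% of all genes did so. Between days 2 and 1 there were 9, where 5.22% of all genes did so, and between days 4 and 2 there were 2, where 5.25% did so. A change over 2-fold was called in 2 members between days 4 and 1, where 1.51% of all genes had one, and in 1 between days 2 and 1, where 1.55% had one. Between days 4 and 2 it was called in 0 members, where 1.77% of all genes had one. Over all 3 day comparisons 86 members were called at least once, against 48.2% of all genes. In all 3 comparisons 13 members were called, against 2.38% of all genes, and in none 16, against 51.8%. A mean under 1000 CPM on at least 1 day was found in 19 members, which passed the rule through the other days. These 19 made up 8 of the 20 members called over 1.5-fold between days 4 and 1, 3 of the 9 between days 2 and 1 and both between days 4 and 2, so the sizes of those changes are partly fixed by the choice.

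**Figure D3:**
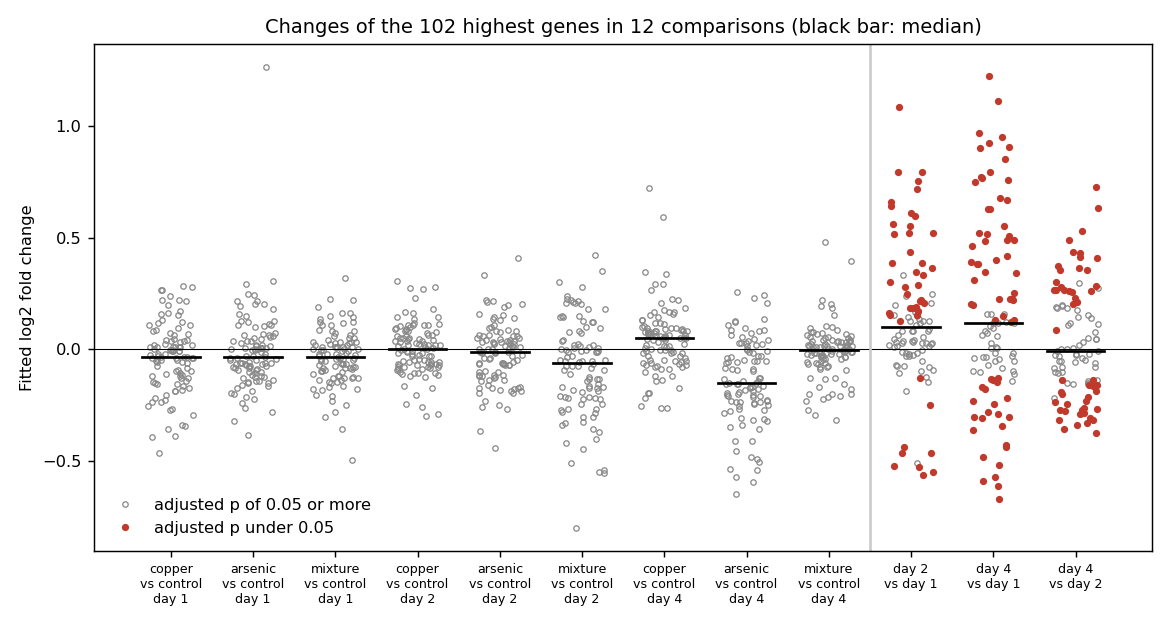
Fitted log2 fold changes of the 102 members in 9 comparisons of an exposure with the controls of its day (left of the line) and in 3 comparisons of days (right of it). Filled red points are members called at an adjusted p under 0.05, open points are not called, and black bars are medians over members. Called members appear in the 3 day comparisons, with 44, 68 and 52 of them, and 0 in the other 9. The day comparisons have 16 libraries a side and the other 9 have 4, so their precision differs.

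The 3 highest genes all rose over the sampling days. Dapma7bEVm012028t1 had a lowest, median and highest library of 19798, 29447 and 36175 CPM on day 4, against 12938, 18826 and 24193 CPM on day 1. The median library of day 4 was above every library of day 1, though the ranges overlapped. The log2 fold change was 0.77 (SE 0.11, edgeR adjusted p 1.07e-06). Dapma7bEVm014991t1 had 17644, 24802 and 30050 CPM on day 4, against 11346, 16023 and 21962 CPM on day 1 (0.68, SE 0.11, edgeR adjusted p 3.71e-06). Dapma7bEVm002960t1 had 13057, 17913 and 21283 CPM on day 4, against 7915, 11545 and 14446 CPM on day 1 (0.76, SE 0.09, edgeR adjusted p 2.70e-08).

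All 3 were already higher on day 2 than on day 1. On day 2 Dapma7bEVm014991t1 had 16838, 21169 and 31146 CPM, above day 1 by 0.52 on the log2 scale (SE 0.11, edgeR adjusted p 3.92e-04). Its further difference of 0.16 between days 4 and 2 did not pass (SE 0.11, edgeR adjusted p 0.297). Dapma7bEVm002960t1 had 10479, 13687 and 16527 CPM on day 2, above day 1 by 0.35 (SE 0.09, edgeR adjusted p 0.00730). Dapma7bEVm012028t1 had 14059, 22026 and 29015 CPM on day 2, above day 1 by 0.33 (SE 0.11, edgeR adjusted p 0.0345). That last call was kept in 43 of 55 alternatives. It was lost, with adjusted p up to 0.0731, when 1 of 12 libraries was left out: copper 3, arsenic 3, mixture 1 or control 4 of day 1, and copper 1 or 4, arsenic 1 or 3, mixture 3 or 4, or control 3 or 4 of day 2. Dapma7bEVm012028t1 was higher on day 4 than on day 2 by 0.43 (SE 0.11, edgeR adjusted p 0.00374), and Dapma7bEVm002960t1 by 0.41 (SE 0.09, edgeR adjusted p 0.00107). Whether the timing differed between the genes was not tested.

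Over the 48 libraries, the log2 CPM of Dapma7bEVm012028t1 was most like that of Dapma7bEVm002960t1 (Pearson r 0.97) and then Dapma7bEVm001565t1 (r 0.84). Dapma7bEVm014991t1 was most like the same genes, with r of 0.88 for Dapma7bEVm002960t1 and 0.85 for Dapma7bEVm001565t1. After group means were taken away, r between Dapma7bEVm012028t1 and Dapma7bEVm002960t1 was 0.94, so the likeness also held among libraries of 1 group. The points share libraries, depth and a common total, and these values are descriptions.

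The members with the largest rises between days 4 and 1 had means close to the lower edge of the set and under 1000 CPM on day 1. They passed the rule through the later days, which favoured a rise, so their values are a description and carry no test. Dapma7bEVm000066t1 had 1002, 1428 and 1781 CPM in its lowest, median and highest library of day 4, against 364, 626 and 945 CPM on day 1. The days did not overlap in this gene. Its fitted difference was 1.23 on the log2 scale (SE 0.12). Dapma7bEVm001511t1 had 1062, 1499 and 1763 CPM on day 4, against 506, 746 and 944 CPM on day 1, again without overlap (1.11, SE 0.10). It also had the largest difference between days 4 and 2, of 0.73 (SE 0.10), followed by Dapma7bEVm010425t1 with 0.64 (SE 0.12), whose mean on day 1 was 880 CPM.

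Some members rose early. Dapma7bEVm028977t1 had 3625, 5195 and 6608 CPM on day 2, against 1429, 2587 and 3503 CPM on day 1, so that the days did not overlap. The log2 fold change was 1.09 (SE 0.11, edgeR adjusted p 1.77e-09), the largest rise of a member between those days. It was lower again on day 4 than on day 2, by −0.34 (SE 0.11, edgeR adjusted p 0.0261). Dapma7bEVm029622t1, whose mean of 938 CPM on day 1 was also under the edge, differed by 0.80 between days 2 and 1 (SE 0.10) and by −0.02 between days 4 and 2 (SE 0.10, edgeR adjusted p 0.906). Dapma7bEVm020057t1 rose by 0.76 on day 2 (SE 0.11, edgeR adjusted p 1.34e-06) and had the largest called fall of a member between days 4 and 2, at −0.37 (SE 0.11, edgeR adjusted p 0.00897). Dapma7bEVm015593t1 came next, at −0.36 (SE 0.07, edgeR adjusted p 2.13e-04).

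**Figure D4:**
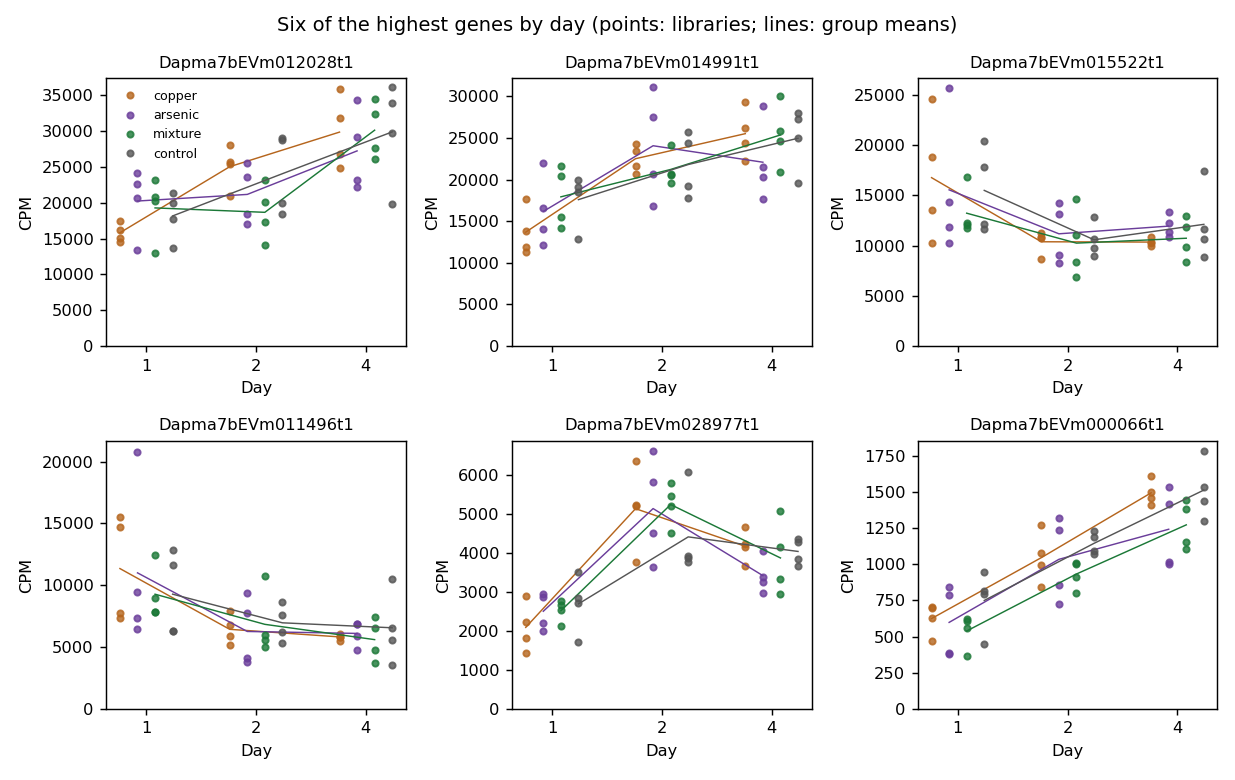
Level in CPM of 6 members on days 1, 2 and 4 (days spaced evenly on the axis). Points are single libraries, coloured by treatment, and lines join the means of a treatment. Dapma7bEVm000066t1 reaches 1002 CPM or more in every library of day 4, against 945 CPM at most on day 1, while Dapma7bEVm015522t1 and Dapma7bEVm011496t1 have their highest libraries on day 1.

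Across the set, the course over days took several forms. Called rises on day 2 followed by called rises on day 4 were found in 10 members (9.80%), against 1.21% of all genes. A called rise on day 2 with no call between days 4 and 2 was found in 18 (17.6%, against 5.10%), and a rise followed by a called fall in 7 (6.86%, against 1.23%). A called fall on day 2 with no later call was found in 8 members (7.84%, against 4.19%). A fall followed by a called rise was found in 1 (0.98%, against 3.60%), Dapma7bEVm018416t1, which is named here because it was alone, and a fall followed by a fall in 0, against 0.272% of all genes. With no call between days 2 and 1, 15 members rose between days 4 and 2 (14.7%, against 7.41%) and 19 fell (18.6%, against 10.6%). In 24 members neither step was called (23.5%, against 66.4%). These shares are not adjusted for the smaller errors of the members.

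The largest falls belonged to genes that varied widely among libraries of 1 group. Dapma7bEVm011496t1 had 3571, 5872 and 10505 CPM on day 4, against 6291, 8424 and 20790 CPM on day 1. The ranges overlapped broadly, and the highest libraries were those of day 1. The log2 fold change was −0.67 (SE 0.15, edgeR adjusted p 7.59e-04), and it was −0.56 between days 2 and 1 (SE 0.15, edgeR adjusted p 0.00902). Dapma7bEVm015635t1, the other largest fall between days 4 and 1, had −0.61 (SE 0.22, edgeR adjusted p 0.0231). It missed the threshold without any 1 of 3 libraries of day 1, with adjusted p of 0.0528 without control replicate 4, 0.0587 without copper replicate 3 and 0.0668 without arsenic replicate 3. Dapma7bEVm015890t1 had −0.55 between days 2 and 1 (SE 0.20, edgeR adjusted p 0.0494), and its adjusted p ranged from 0.0239 to 0.135 over the alternatives. The means of Dapma7bEVm015635t1 and Dapma7bEVm015890t1 over all libraries were 1017 and 1131 CPM, near the lower edge and raised by day 1. The rule favoured a fall in such genes, so the sizes and p-values of these 2 falls are partly fixed by the choice.

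Libraries of the same group differed along shared lines. After the group means of log2 CPM were taken away, the first axis of a principal component analysis of the members held 48.8% of the remaining variance and the second 17.9%. Members were then joined into sets when their residuals correlated over the 48 libraries at a mean r of 0.7, a cutoff chosen after seeing the data. This gave 12 sets of at least 3 members with 69 members in all, and cutoffs of 0.6 and 0.8 gave 11 sets with 83 members and 9 sets with 48. The sets are descriptions and carry no test of their own.

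The tightest set held 8 members, with r from 0.86 to 0.99 between any pair. These were Dapma7bEVm015522t1, Dapma7bEVm020394t1, Dapma7bEVm011496t1, Dapma7bEVm011675t1, Dapma7bEVm008625t1, Dapma7bEVm014139t1, Dapma7bEVm015890t1 and Dapma7bEVm015635t1. Together they took between 2.09% and 8.59% of a library, a 4.12-fold range. On day 1 the 4 copper libraries had 3.86%, 7.42%, 6.93% and 3.03%, the arsenic libraries 2.96%, 4.39%, 8.59% and 3.64%, and the mixture libraries 5.43%, 3.77%, 3.78% and 3.64%, while the controls had 3.32%, 3.33%, 5.96% and 5.79%. Each day-1 group thus held libraries with a high and a low share, the controls included. On day 2 no library exceeded 4.70%, and on day 4 none exceeded 5.16%.

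The mean share of these 8 genes was 4.74% ± 1.74 on day 1, 3.197% ± 0.819 on day 2 and 3.14% ± 0.721 on day 4 (SD, n = 16 libraries a day). Their medians were closer, at 3.82%, 3.12% and 3.04%. All 8 were called lower on day 4 than on day 1, where 20.1% of all genes were lower, and 7 of the 8 lower on day 2 than on day 1, where 8.06% were. The 8 share their libraries and vary together, so these are not separate results. Dapma7bEVm015635t1 and Dapma7bEVm015890t1 had means of 1017 and 1131 CPM over all libraries, near the lower edge and raised by day 1. These counts are therefore partly fixed by the choice. Between days 4 and 2 edgeR called 0 of them. Dapma7bEVm015522t1, the most abundant of the 8, had 8335, 10859 and 17405 CPM on day 4, against 10224, 12896 and 25712 CPM on day 1. Its fitted change was −0.34 on the log2 scale (SE 0.12, edgeR adjusted p 0.0190). Without arsenic replicate 3 of day 1, which was its highest library, the adjusted p was 0.0593.

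**Figure D5:**
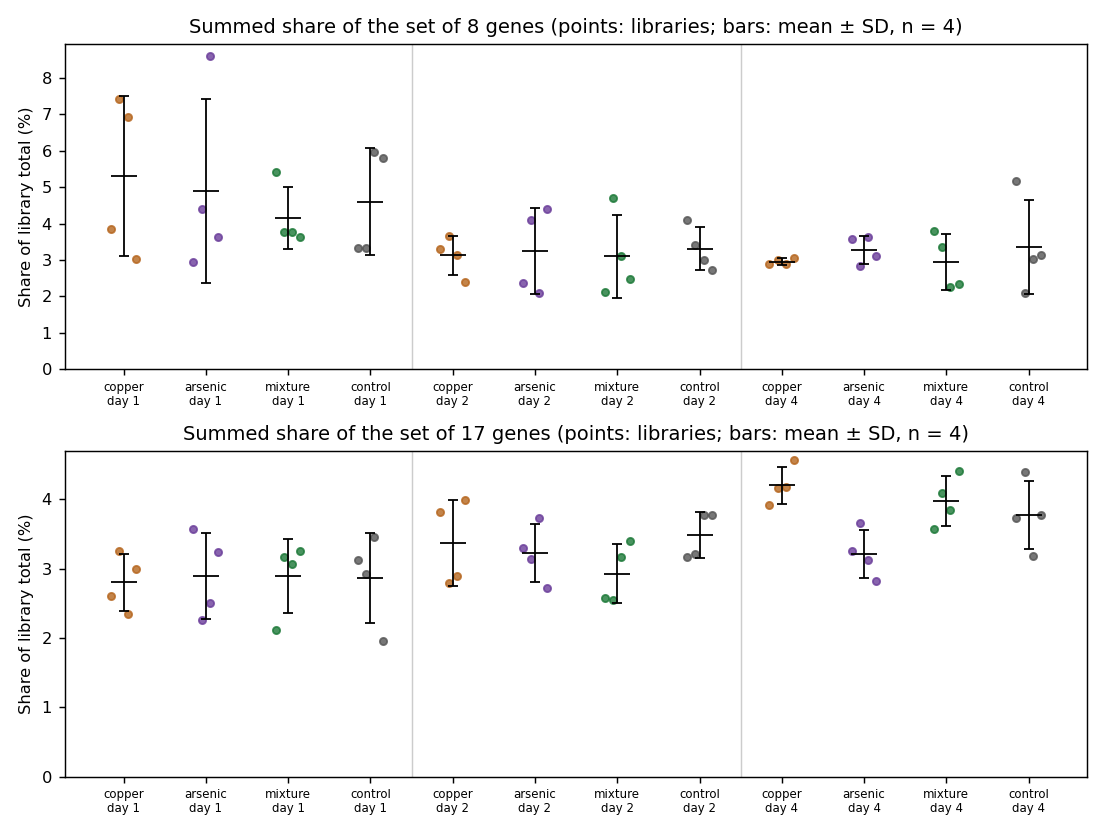
Summed share of the library total (percent) taken by the tightest set of 8 members (top) and by the largest set of 17 members (bottom) in the 12 groups. Points are single libraries and bars show the mean ± SD of 4. The set of 8 reaches 8.59% in an arsenic library of day 1 and varies widely inside every day-1 group, and the set of 17 averages 3.79% on day 4 and 2.86% on day 1.

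The largest set held 17 members led by Dapma7bEVm018399t1, with pairwise r from 0.51 to 0.95. Its summed share was 2.86% ± 0.501 on day 1, 3.25% ± 0.467 on day 2 and 3.79% ± 0.507 on day 4 (SD, n = 16 libraries a day). Of the 17 members, 14 were called higher on day 4 than on day 1, where 16.9% of all genes were higher, and 0 lower, where 20.1% were. Among the 14, Dapma7bEVm010425t1 had a mean under 1000 CPM on day 1, and Dapma7bEVm010891t1 had 1053 CPM over all libraries. Such members passed the rule through the later days, so the count is partly fixed by the choice. Among libraries of 1 group its share and that of the 8 genes above moved in opposite directions, with r of −0.47 over 48 libraries. Both are shares of the same totals, so part of an opposite movement is built into the scale.

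Smaller sets followed the day in their own ways. A set of 6 with Dapma7bEVm015017t1, Dapma7bEVm004274t1, Dapma7bEVm001511t1 and Dapma7bEVm000066t1 had a median log2 fold change of 0.78 between days 4 and 1. Of its members, 5 of 6 were called higher, where 16.9% of all genes were. Dapma7bEVm001511t1 and Dapma7bEVm000066t1 passed the rule through the later days, so this median and count are partly fixed by the choice. The 3 highest genes formed a set of their own, which took between 3.34% and 8.62% of a library. Dapma7bEVm028977t1, Dapma7bEVm020057t1 and Dapma7bEVm029622t1 formed another, with all 3 called higher on day 2 than on day 1, where 7.54% of all genes were. The mean of Dapma7bEVm029622t1 on day 1 was under 1000 CPM, so its call is partly fixed by the choice. A set of 5 led by Dapma7bEVm005311t1 and one of 4 led by Dapma7bEVm002349t1 were called lower on day 4 in all their members, against day 1 and against day 2 alike. Of all genes, 20.1% were called lower against day 1 and 12.1% against day 2. In the set of 4, Dapma7bEVm004460t1 and Dapma7bEVm015369t1 had means of 1141 and 1162 CPM over all libraries, near the lower edge. Their falls may therefore be partly fixed by the choice. The members of each set vary together, so the calls within a set are not separate results. The share of the set of 5 correlated with that of the set of 17 at r of −0.70 within groups.

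The exposures were compared with the controls of the same day to ask whether the metals changed the members. EdgeR called 0 of the 102 members for any exposure on any day, and DESeq2 also called 0 in these 9 comparisons. The comparisons of a day share their 4 controls. On day 1, the share of all genes called was 0% for copper, 0.0126% for arsenic and 0.0253% for the mixture. On day 2 it was 0% for copper, 0% for arsenic and 0.145% for the mixture, and on day 4 it was 0.0696% for copper, 0.0632% for arsenic and 0.0126% for the mixture. With 4 libraries a group the median SE of a member's log2 fold change was 0.15, against 0.23 over all genes. The 95% interval of the change lay within 2-fold in either direction for 95 to 101 of the 102 members, depending on the comparison, and within 1.5-fold for 67 to 85. Larger changes than these were therefore outside the intervals of most members, and smaller ones were not resolved.

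At an unadjusted p under 0.05, copper had 1, 1 and 3 members on days 1, 2 and 4, where 4.91%, 1.68% and 3.13% of all genes passed. Arsenic had 2, 1 and 11 members on these days, where 5.88%, 3.64% and 8.18% of all genes passed. The mixture had 1, 7 and 0 members, where 3.94%, 11% and 3.47% of all genes passed. The members' share was 10.8% for arsenic on day 4, a little above the background, and below it in the other 8 comparisons.

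Arsenic on day 4 gave the most such members. Of its 11, 10 were on the lower side with arsenic, and the median log2 fold change over members was −0.15, against 0.00 over all genes. The directions of all genes that passed are not given. Several of the 11 vary together among libraries of 1 group, so they are not separate results. The smallest adjusted p of a member was 0.577, for Dapma7bEVm021584t1. It had 1212, 1219, 775 and 891 CPM in the arsenic libraries of day 4, against 1240, 1664, 1299 and 1679 CPM in the controls, a log2 fold change of −0.60 (SE 0.21, 95% interval −1.03 to −0.17). All 4 arsenic libraries were below the 4 controls, the nearest pair being 1219 and 1240 CPM. This gene is named because its p was the smallest.

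The summed share of the members was also compared on that day. The arsenic libraries of day 4 had 28.4%, 29.8%, 26.3% and 26.7%, against 28.8%, 30.3%, 29.5% and 30.0% in the controls. Of the 4 arsenic libraries, 3 lay below every control. The means were 27.8% ± 1.64 with arsenic and 29.6% ± 0.64 in controls (SD, n = 4 each), a difference of −1.84 percentage points that did not pass (exact permutation test, two-sided, p 0.0857, adjusted p 0.314). The smallest p that 4 against 4 libraries can give is 0.0286, and the adjusted p of such a comparison could not have gone below 0.105 with the others as they are. A single exposure comparison of the share could therefore not pass after adjustment, and the differences are given as values. In the other 8 exposure comparisons of the share the differences ran from −1.30 points for the mixture on day 2 (26.95% ± 0.973 against 28.3% ± 1.22, exact permutation p 0.171) to 0.23 points for copper on day 4.

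The changes of the members between days 4 and 1 were also set out for each treatment. The median log2 fold change of the members between these days was 0.15 in copper, 0.00 in arsenic and 0.13 in mixture libraries, against 0.13 in controls. In arsenic libraries 50 members had a positive and 52 a negative value, while in controls 60 were positive and 42 negative. The effects of copper, arsenic and the mixture on day 4 were set against those on day 1 in the model. EdgeR called 0 members for each, as did DESeq2, with 1, 6 and 0 members at an unadjusted p under 0.05, where 3.12%, 6.98% and 3.83% of all genes passed. At the adjusted threshold 0% of all genes were called for copper, 0% for arsenic and 0% for the mixture. The balance seen with arsenic is thus not shown to differ from that of the controls.

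Libraries with a metal were also pooled over days and compared with those without it, 24 against 24. Copper present against absent had 0 members called by edgeR and 1 by DESeq2, with 3 members at an unadjusted p under 0.05. Of all genes, 0.0632% were called and 3.76% had an unadjusted p under 0.05. Arsenic present against absent had 0 members called by both tools and 8 at an unadjusted p under 0.05, all 8 lower with arsenic. Of all genes, 0% were called there and 6.9% had an unadjusted p under 0.05, in directions that are not given. As members vary together among libraries, the 8 are not taken as separate results. All 102 members had intervals within 2-fold in both comparisons. These intervals hold for the change averaged over the 3 days and over libraries with and without the other metal. They do not bound a change on a single day.

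The member DESeq2 called was Dapma7bEVm010172t1, which is singled out after its values were seen. On day 4 it had 3410, 3408, 3482 and 3761 CPM with copper and 2621, 3083, 3453 and 3353 CPM in the mixture, against 1745, 2353, 1640 and 1505 CPM with arsenic and 1865, 2820, 2266 and 2469 CPM in controls. Every copper library of day 4 was above every control, and the mixture libraries overlapped with the controls. On day 1 the means were 1629 CPM with copper and 1496 CPM in the mixture, against 1224 CPM with arsenic and 1428 CPM in controls. Over all days copper present exceeded copper absent by 0.38 on the log2 scale (SE 0.09, 95% interval 0.19 to 0.57, edgeR adjusted p 0.164). The adjusted p was 0.0433 with DESeq2, 0.0455 with scaling to library totals and 0.0351 without copper replicate 2 of day 2, so its call depended on these choices. The same gene rose by 0.95 between days 4 and 1 (SE 0.12, edgeR adjusted p 2.48e-08).

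Dapma7bEVm020523t1, the second most variable member, had the largest difference of any member from its controls. With arsenic on day 1 it had 982, 3209, 1299 and 3439 CPM, against 991, 1282, 950 and 472 CPM in controls. The arsenic libraries fell into a high and a low pair, and the low pair overlapped with the controls. The log2 fold change was 1.27 (SE 0.46, 95% interval 0.34 to 2.19), which did not pass (edgeR adjusted p 0.750).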

How the data were processed

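RNA of 48 whole-body libraries was sequenced. The authors' deposited table holds whole-number counts for each gene in each library. The submitters' processing notes name TopHat2 2.1.1, HTSeq and edgeR without role or order. The sources used here name no genome build, annotation or strand setting. The table is named as normalised, but 0 values were not whole and totals differed 2.53-fold, so it was tested as counts. A score of gaps among low values was at most 1.47 as deposited and at least 1.66 after counts were multiplied by 0.95 and rounded, a narrow margin. Had the counts been rescaled upstream, the errors of a count model would be affected.

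CPM was the count divided by the library total in M. Genes with at least 14 counts in at least 4 libraries were tested with edgeR 4.0.16 (R 4.3.3): TMM factors (0.913 to 1.09), a 12-group model, the two-sided quasi-likelihood test and Benjamini-Hochberg adjustment within each of 17 comparisons. Fold changes use a prior count of 0.125. Summed shares were compared by permutation over libraries (numpy 2.4.6). The steps were tested on simulated data. All 72 pairs of replicate libraries differed by more than sampling noise, with a chi-square of at least 9.60 per degree of freedom. No molecular identifiers are described, so errors given for counting leave out duplicates made by PCR.

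Genes named are the 10 highest, per comparison the 2 largest called rises and falls, the 3 steadiest and 3 most variable within groups, 3 on each side of the threshold and the 2 closest to each of the 3 highest; others are marked. Members, lists and rules were chosen with earlier results of these data known. Members whose reads are shared with paralogs or overlapping genes could not be told from the rest. Alternatives were DESeq2 1.42.0, other scalings, no filter, a replicate block, other thresholds and libraries left out.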

Additional observations from a re-analysis of the deposited data

Results flagged for a closer look

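A library was set apart when its gap to the other 3 of its group was large by Dixon's criterion (over 0.829 of the group's range). Among 132 groups examined for the 10 highest genes and the summed share, 5 were set apart, and chance gives about 1 in 20, or 6.6. Dapma7bEVm015522t1 had 16864 CPM in mixture replicate 1 of day 1, against 11750 to 12284 CPM in the other 3, and 8706 CPM in copper replicate 4 of day 2, against 10802 to 11233 CPM. Dapma7bEVm009632t1 had 10965 CPM in mixture replicate 3 of day 1, against 7932 to 7975 CPM in the other 3. Dapma7bEVm018415t1 had 13608 CPM in copper replicate 4 of day 2, against 11014 to 11353 CPM, and Dapma7bEVm015017t1 had 7386 CPM in control replicate 2 of day 2, against 6228 to 6369 CPM. Copper replicate 4 of day 2 is the only library listed more than once. None of 90 pairs of exposure effects was opposite in every library (0 found).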

How the results depend on the processing

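No called result changed direction under the other settings tried. Of 2200 values of 40 results on named genes, 2074 kept their side of the threshold and 0 called ones changed direction. Members called ranged from 41 to 49 between days 2 and 1, from 65 to 70 between days 4 and 1 and from 48 to 57 between days 4 and 2 under other filters, scalings, tools and blocks; with 1 library left out the ranges were 31 to 51, 60 to 71 and 45 to 54. With 3 libraries of day 4 (mixture replicate 1, control replicates 1 and 4) left out together they were 45, 67 and 45. The shares of all genes called under these other settings are not given, so these counts have no background beside them. Copper present against absent called 1 member with scaling to library totals and 1 with DESeq2, and 0 to 1 with a library left out. With a threshold of 2000 CPM the share on day 2 exceeded day 1 by 1.03 points (permutation adjusted p 0.0821), and with 1 library left out by 1.15 to 1.44 points; the cause was not tested. The replicate numbers did not pair libraries (r of same-numbered deviations −0.42 to 0.37, 10 of 48 libraries closest to their own number); with the replicate block 42, 65 and 48 members were called. The call of Dapma7bEVm009808t1 between days 2 and 1 (0.18, adjusted p 0.0498) ranged from 0.0193 to 0.105 in adjusted p. With 4 libraries a group, changes of a member under about 1.5-fold were often not resolved.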
